A study of Saccharomyces cerevisiae with 176 samples.

Results

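The yeast strains A20, A21 and A23 were compared with the strain 2N after growth in phosphate-limited chemostats. The comparison held the libraries whose titles name a chemostat culture of these 4 strains and whose codes begin with d204: 2 libraries each of A20, A21, A23 and 2N, 8 in all of the 176 libraries of budding yeast (Saccharomyces cerevisiae) in the series. The series looked at expression in euploid and aneuploid cells under several growth conditions. All 4 strains have the S288C background. The labels speak of complex aneuploid strains, and they list neither the chromosomes gained nor the mating types. Cells were taken from plates of rich medium with 2% glucose kept for 2 days at 25 °C. They were then grown in phosphate-limited medium with 0.17 ± 0.01 volumes replaced per hour until steady state, with day-to-day readings that moved by less than 5%. Poly(A) RNA was sequenced from KAPA libraries. The labels do not say whether the 2 libraries of a strain came from separate cultures, so p-values measure only the spread between these libraries.

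In a chemostat the dilution rate sets the rate of growth, so strains that grow at different speeds in a flask can be compared at 1 speed. Extra chromosomes raise the RNA of most genes they carry, and slow growth in yeast goes with high RNA of the environmental stress genes and low RNA of ribosome genes. When phosphate runs short, the transcription factor Pho4 switches on secreted phosphatases, phosphate transporters and the enzymes that store polyphosphate. The mating type genes work through a few regulators: alpha1 switches on genes of alpha cells, alpha2 with Mcm1 switches off genes of a cells, and a1 with alpha2 switches off genes that haploid cells of either type use.

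Expression was given as log2(TPM + 1), where TPM scales transcripts to a fixed total per library. The table carries no read depth, so the counting error of each value is unknown. Summed TPM of the genes in the table came to between 95.7% and 98.9% of the full total in the 8 libraries. The median of the 5625 genes tested lay below that of 2N by log2 values of -0.22 in A20, -0.18 in A21 and -0.14 in A23. Differences of genes are therefore given relative to these medians, written as strain minus 2N on the log2 scale, and the median of all genes is 0 on that scale. The calls and p-values test the difference before the median is taken off. The stress gene HSP12 alone held 3.09% and 9.59% of all TPM in A20, 5.37% and 5.15% in A21 and 4.21% and 3.84% in A23, against 1.36% and 0.847% in 2N. Replicates correlated across genes at r = 0.939 in A20, 0.974 in A21, 0.949 in A23 and 0.975 in 2N. Libraries of different strains came as close, with r = 0.948 between A20 replicate 2 and A23 replicate 1 and r = 0.941 between A20 replicate 1 and A23 replicate 2. In RNA from a whole culture, fewer cells of a kind and less RNA per cell cannot be told apart.

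Genes were called where limma's test gave a Benjamini-Hochberg adjusted p under 0.05. In A20, 350 genes (6.22% of those tested) differed from 2N, 40 higher (0.711%) and 310 lower (5.51%). In A21 there were 409 (7.27%), 116 higher (2.06%) and 293 lower (5.21%). In A23 there were 239 (4.25%), of which 70 were higher (1.24%) and the rest lower (3.0%). The mean of the 3 strains differed from 2N in 531 genes (9.44%), 95 higher (1.69%) and 436 lower (7.75%). After each library was centred on its median the splits were 37 higher and 70 lower in A20, 162 and 189 in A21 and 77 and 95 in A23. The 3 strains shared 13 genes called higher (0.231%) and 51 called lower (0.907%). All 3 comparisons use the same 2N libraries. For scale, all 6 strain libraries lay above both 2N libraries in 226 genes (4.02%) and below both in 1108 (19.7%). Of the shared genes, 9 of the 13 and 14 of the 51 were still shared after centring on the median.

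These counts rest on few libraries. Without 2N replicate 1 limma called 0 genes in A20, 71 in A21 and 0 in A23, and without 2N replicate 2 it called 0, 47 and 14. No gene was then called in all 3 strains, while at an unadjusted p under 0.05 there were 57 shared higher and 264 shared lower without 2N replicate 1, and 40 and 213 without 2N replicate 2. Without A23 replicate 2 the shared genes numbered 0 higher and 5 lower, and 52 and 314 at an unadjusted p under 0.05. They numbered 6 and 44 without A23 replicate 1, 4 and 12 without A21 replicate 1, 3 and 11 without A21 replicate 2, 30 and 53 without A20 replicate 1, and 14 and 32 without A20 replicate 2. The count of A20 fell to 218 without A20 replicate 1, 137 without A20 replicate 2, 114 without A21 replicate 1 and 109 without A21 replicate 2. That of A21 fell to 73 and 102 without its own replicates 1 and 2. That of A23 was 15 without its replicate 2, 102 and 98 without A21 replicates 1 and 2, and at most 357 without either A20 replicate.

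Genes of whole chromosomes lay above or below the rest, and the set of chromosomes differed between the strains. In A20 the genes of chromosomes VII, IX, XIII, XIV and XV lay above the median of all nuclear genes, with chromosome medians between 0.327 and 0.382, and the other 11 lay below, between -0.285 and -0.159. In A21 chromosomes II, IV, VII, XIII, XIV and XV lay above, between 0.247 and 0.286, and 10 below, between -0.325 and -0.264. In A23 chromosomes I, II, IX, XI, XII, XIII, XIV and XV lay above, between 0.168 and 0.310, and 8 below, between -0.347 and -0.182. The upper and lower chromosomes were 0.565 apart in A20, 0.553 in A21 and 0.467 in A23. For scale, the log2 of the ratio 3/2 is 0.585. The 2 libraries of A23 parted on chromosome II, at 0.316 in replicate 1 and 0.054 in replicate 2, on XII, at 0.088 and 0.248, and on XV, at 0.115 and 0.254. In 6 batch culture libraries of A23 these chromosomes ran from 0.214 to 0.353, from 0.191 to 0.259 and from 0.152 to 0.256. The sign of the batch culture median was the same on 16 of 16 chromosomes in each strain.

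**Figure D1:**
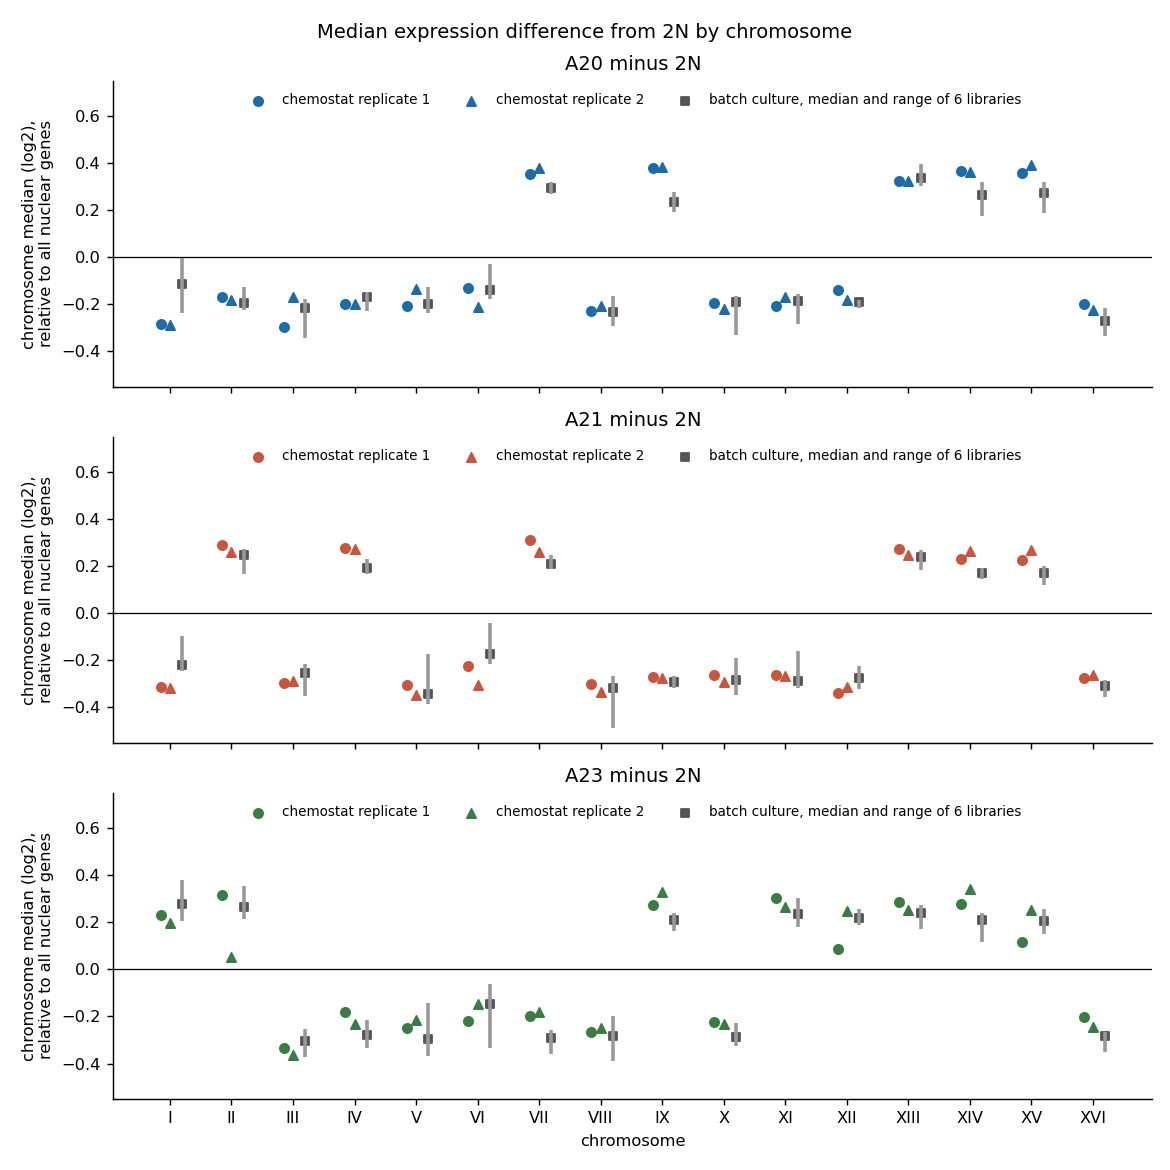
Median log2 difference from 2N over the genes of each nuclear chromosome (x axis), relative to all nuclear genes (y axis), for A20, A21 and A23. Circles and triangles are the 2 chemostat libraries, squares and bars the median and range of 6 batch culture libraries; XIII, XIV and XV lie above 0 in all 3 strains, and A23 replicate 2 lies at 0.054 on chromosome II, where replicate 1 lies at 0.316.

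The called genes followed this pattern. Of the 310 genes lower in A20, 292 lay on the chromosomes below the median, as did 238 of 293 in A21 and 135 in A23 of those called lower there. Of the genes called higher, 29 of 40 in A20, 85 of 116 in A21 and 50 of 70 in A23 lay on the chromosomes above it. The chromosomes above hold 2038 of the genes tested in A20, 2973 in A21 and 2816 in A23. Chromosomes XIII, XIV and XV were above in all 3 strains. They hold 23.8% of the genes tested, 9 of the 13 shared higher genes and 4 of the 51 shared lower ones. Chromosomes III, V, VI, VIII, X and XVI were below in all 3 strains. They hold 27.9% of the genes tested, 1 of the shared higher genes and 31 of the shared lower ones. When each chromosome was centred on its own median, 35 of the 350 calls remained in A20, 190 of 409 in A21 and 76 of 239 in A23. The shared genes were then 5 higher and 11 lower.

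The strains differed from each other in genes of mating. A21 had high RNA of alpha cell genes, A23 had high RNA of a cell genes, and A20 lay near 2N in both sets. Genes of haploid cells were high in A21 and A23. The upstream sequences of the 7 a cell genes are shown because these genes separate the strains. They were read from the R64 genome (sacCer3). Within 300 bases before the start codon, all 7 hold CATGTAA, which is found on either strand in 3.93% of 5986 genes. In the windows below, capitals mark CATGTAA and the fixed letters of CCNNNNNNGG, which is found within 300 bases of 28.7% of genes. The letters of these windows were read on the strand on which CATGTAA reads forward.
MFA1, chrIV:1384945-1384976, minus strand: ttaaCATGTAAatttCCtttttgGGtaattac
MFA2, chrXIV:352166-352197, minus strand: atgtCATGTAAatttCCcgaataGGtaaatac
STE2, chrVI:82347-82378, plus strand: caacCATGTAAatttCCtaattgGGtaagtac
STE6, chrXI:46480-46511, minus strand: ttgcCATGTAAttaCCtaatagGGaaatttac
BAR1, chrIX:322080-322111, minus strand: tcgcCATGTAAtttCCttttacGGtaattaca
ASG7, chrX:101901-101932, plus strand: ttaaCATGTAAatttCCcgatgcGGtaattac
AGA2, chrVII:437104-437135, minus strand: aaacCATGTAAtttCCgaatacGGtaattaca
A match is a description of the letters and not a measured site.

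All 6 a cell genes that could be tested were higher in A23, with a median difference of 3.77, and 4 of the 6 were lower in A21, with a median of -1.59. The shares of all genes were 1.24% called higher in A23 and 5.21% called lower in A21. ASG7 missed the filter on low values. MFA2, which encodes the pheromone a-factor (chromosome XIV, 352414 to 352530), stood at 3.81 and 4.81 in A20, at 0 and 2.15 in A21 and at 11.16 and 11.29 in A23, against 4.26 and 6.17 in 2N. The A23 libraries were far above all others, those of A21 were lowest, and A20 overlapped 2N. The difference was 6.15 ± 0.77 (SE) in A23 (limma, adjusted p = 0.0109) and -3.96 ± 0.77 in A21 (limma, adjusted p = 0.0195). STE2, the receptor for alpha-factor (chromosome VI, 82580 to 83875), stood at 2.96 and 3.11 in A20, at 1.36 and 2.69 in A21 and at 7.93 and 7.99 in A23, against 3.80 and 4.02 in 2N. Its 2N values lay above both A20 and both A21 values and below both A23 values. BAR1, the protease that destroys alpha-factor, was called in A23 and differed there from both other strains. It met the filter only through the A23 libraries. It stood at 2.17 and 2.02 in A20, at 0.77 and 1.47 in A21 and at 5.77 and 5.45 in A23, against 1.84 and 2.42 in 2N. STE6, the exporter of a-factor, was lower in A20 at -0.97 and in A21 at -0.83, and higher in A23 at 1.50.

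The 4 alpha cell genes were all higher in A21, with a median difference of 4.85. In A21 2.06% of all genes were called higher. MF(ALPHA)2 stood at 6.51 and 5.29 in A21 and at most at 1.42 in any other library. It met the filter, a mean of at least 2 over the 8 libraries, only through the A21 libraries. In A23 none was called, and 2 were lower at an unadjusted p under 0.05 by limma. MF(ALPHA)1, which encodes the pheromone alpha-factor (chromosome XVI, 193648 to 194145), stood at 4.34 and 3.74 in A20, at 13.42 and 13.55 in A21 and at 3.08 and 1.46 in A23, against 4.04 and 4.67 in 2N. It differed by 9.31 ± 0.48 in A21 (limma, adjusted p = 7.62e-05). No other strain came near the 2 A21 libraries. STE3, the receptor for a-factor, stood at 3.03 and 2.88 in A20, at 7.42 and 7.65 in A21 and at 2.94 and 3.39 in A23, against 3.2 and 3.27 in 2N. SAG1, the alpha agglutinin, was higher in A21 at 2.72 and lower in A20 at -1.07.

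The mating type genes themselves differed between the strains. HMRA1, the gene for a1, which the reference genome holds only at a silent locus, stood at 6.23 and 6.86 in A20, was listed at 0 in both A21 libraries, and stood at 8.33 and 7.85 in A23, against 7.26 and 7.0 in 2N. MATALPHA1, the gene for alpha1, stood at 1.11 and 1.61 in A20, at 5.88 and 5.85 in A21, was listed at 0 in both A23 libraries, and stood at 2.2 and 1.75 in 2N. It is identical over 528 bases to HMLALPHA1, and the table gives both the same values. MATALPHA2, the gene for alpha2, stood at 5.45 and 5.64 in A20, at 7.84 and 8.09 in A21 and at 5.58 and 5.04 in A23, against 5.60 and 6.04 in 2N. Its 633 bases are identical to those of HMLALPHA2, and its last 360 bases are those of HMRA2. Its reads therefore cannot be told from those of these genes. MATALPHA1 and MATALPHA2 were chosen after their values were seen. MATALPHA1 met the filter only through the A21 libraries. The libraries of A20 and 2N thus listed RNA for both a1 and alpha1, those of A21 none for a1 and those of A23 none for alpha1.

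**Figure D2:**
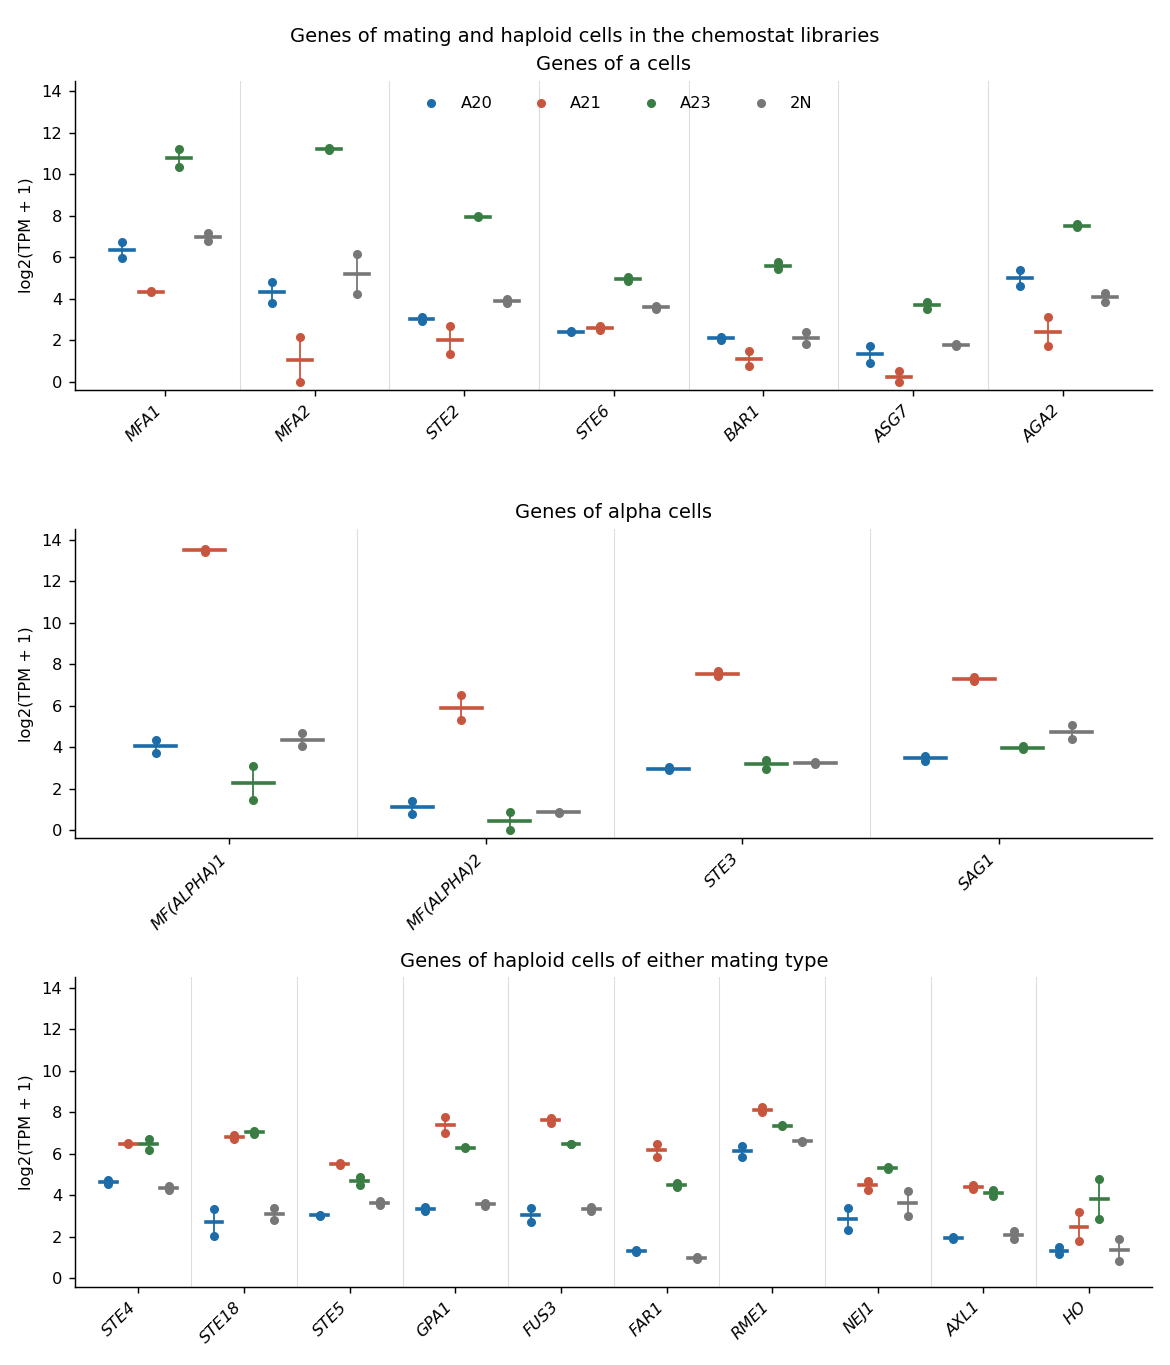
Expression as log2(TPM + 1) (y axis) of genes of a cells, alpha cells and haploid cells of either type (x axis) in A20, A21, A23 and 2N. Points are libraries, horizontal bars the mean of 2; A23 is highest in the 7 a cell genes, A21 in the 4 alpha cell genes, and both lie above A20 and 2N in most haploid genes.

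Of 10 genes of haploid cells, 8 were higher in A21 and 7 in A23, with median differences of 2.40 and 2.42. The shares of all genes called higher were 2.06% in A21 and 1.24% in A23. In A20 limma called 0 of 10 (0 higher and 1 lower at an unadjusted p under 0.05), with a median of -0.03. FAR1, which stops the cell cycle in response to pheromone, stood at 1.34 and 1.26 in A20, at 5.85 and 6.49 in A21 and at 4.60 and 4.38 in A23, against 1.01 and 0.91 in 2N. It met the filter only through the A21 and A23 libraries. FUS3, the kinase of the pheromone pathway, stood at 2.70 and 3.41 in A20, at 7.51 and 7.73 in A21 and at 6.47 and 6.49 in A23, against 3.25 and 3.43 in 2N. GPA1, STE4 and STE18 encode the G protein of that pathway, and all 3 were higher in A21 and in A23. GPA1 rose by 4.00 in A21 and 2.86 in A23, and STE18 by 3.90 and 4.07. HO and NEJ1, which act in mating type switching and in joining broken DNA ends, were called in neither strain. The pattern TGTNNNNNNNTACATCA, searched on both strands, is found within 500 bases before 0.334% of genes, among them HO, NEJ1 and RME1 of the 10 haploid genes. Windows with it are given for 2 of these and for MATALPHA1, since a1 and alpha2 act on such a spaced pair of sites. Capitals mark the fixed letters.
HO, chrIV:48427-48456, minus strand: atcaTGTtattattTACATCAacatatcgc
NEJ1, chrXII:675585-675614, plus strand: tccaTGTaaaaaaaTACATCAatcataaat
MATALPHA1, chrIII:200324-200353, plus strand: ccaaTGTagaaaagTACATCAtatgaaaca
HO stood at 1.49 and 1.16 in A20, at 3.19 and 1.79 in A21 and at 2.87 and 4.79 in A23, against 1.90 and 0.83 in 2N, so A21 overlapped 2N and A23 did not. NEJ1 stood at 3.39 and 2.33 in A20, at 4.68 and 4.28 in A21 and at 5.35 and 5.25 in A23, against 3.01 and 4.23 in 2N.

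IME4, an RNA methyltransferase needed for meiosis (chromosome VII, 142246 to 144048, plus strand), moved against the haploid genes. It stood at 4.56 and 4.19 in A20, was listed at 0 in both A21 libraries, and stood at 0.19 and 0.38 in A23, against 4.39 and 4.20 in 2N. In A23 it was lower by -3.88 ± 0.38 (limma, adjusted p = 0.00305). The reading frame YGL193C, next to it on the minus strand of chromosome VII and chosen after its values were seen, stood at 1.82 and 0 in A20, at 7.18 and 7.07 in A21 and at 7.14 and 6.25 in A23, against 3.62 and 3.48 in 2N. The sources used here do not say whether reads were counted by strand. Among 16 pheromone response genes, 7 were higher and 1 lower in A21, with a median of 1.53. In A23 1 was higher and 1 lower, with a median of 0.29, and in A20 1 was higher and 1 lower, with a median of 0.20. The shares of all genes called higher were 2.06% in A21, 1.24% in A23 and 0.711% in A20. Those called lower were 5.21%, 3.0% and 5.51%. FUS1, which acts in cell fusion, stood at 1.23 and 1.80 in A20, at 5.13 and 4.41 in A21 and at 1.55 and 1.94 in A23, against 2.05 and 1.74 in 2N. FUS1 and PRM1 met the filter only through the A21 libraries. AGA1, which anchors the a agglutinin, rose by 3.62 in A21, where it differed from both other strains.

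The genes shared as higher included genes of stress and of sugar use. The 13 were ALD3, CTT1, GAD1, GRE2, HOL1, HXT6, MDH2, MDM32, OPT1, PGM2, PRM5, YGP1 and YNL194C. YGP1, a secreted glycoprotein of starved cells (chromosome XIV, 336545 to 337609), stood at 9.16 and 10.92 in A20, at 11.50 and 11.49 in A21 and at 10.90 and 10.26 in A23, against 6.28 and 6.62 in 2N. It was higher by 3.80 in A20, 5.23 in A21 and 4.27 in A23, each ± 0.52 (limma, adjusted p = 0.0166, 0.00184 and 0.0103). ALD3, an aldehyde dehydrogenase of the stress response (chromosome XIII, 599352 to 600872), stood at 7.78 and 10.56 in A20, at 10.06 and 10.10 in A21 and at 10.54 and 9.97 in A23, against 5.94 and 5.31 in 2N. The 2 A20 libraries were further apart than those of any other strain. CTT1, the cytosolic catalase (chromosome VII, 654634 to 656322), stood at 8.05 and 9.38 in A20, at 9.21 and 9.30 in A21 and at 9.55 and 9.51 in A23, against 6.78 and 6.39 in 2N. It differed by 2.34, 2.85 and 3.08, each ± 0.40.

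HXT6, a high affinity glucose transporter (chromosome IV, 1159608 to 1161320), stood at 6.56 and 7.15 in A20, at 7.52 and 6.99 in A21 and at 6.13 and 6.54 in A23, against 4.02 and 3.58 in 2N. Its coding sequence is 99.8% identical to that of HXT7 over 1713 bases, so reads could be split between them. HXT7 itself stood at 9.50 and 9.55 in A20, at 8.00 and 7.87 in A21 and at 8.65 and 9.48 in A23, against 8.93 and 7.72 in 2N, and was called in none of the strains. MDH2, the cytosolic malate dehydrogenase of gluconeogenesis, stood at 8.47 and 8.09 in A20, at 8.44 and 8.46 in A21 and at 8.10 and 7.76 in A23, against 6.66 and 6.61 in 2N. OPT1, an oligopeptide transporter, rose by 2.24, 2.05 and 1.50 in A20, A21 and A23. PGM2, the main phosphoglucomutase, rose by 1.75, 1.91 and 1.88. PRM5, a gene induced by pheromone and cell wall stress, rose by 1.60, 1.94 and 1.89. The letters AGGGG, the core that the stress factors Msn2 and Msn4 bind, were found on either strand within 300 bases before 6 of the 13 genes and before 22.2% of all genes.

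**Figure D3:**
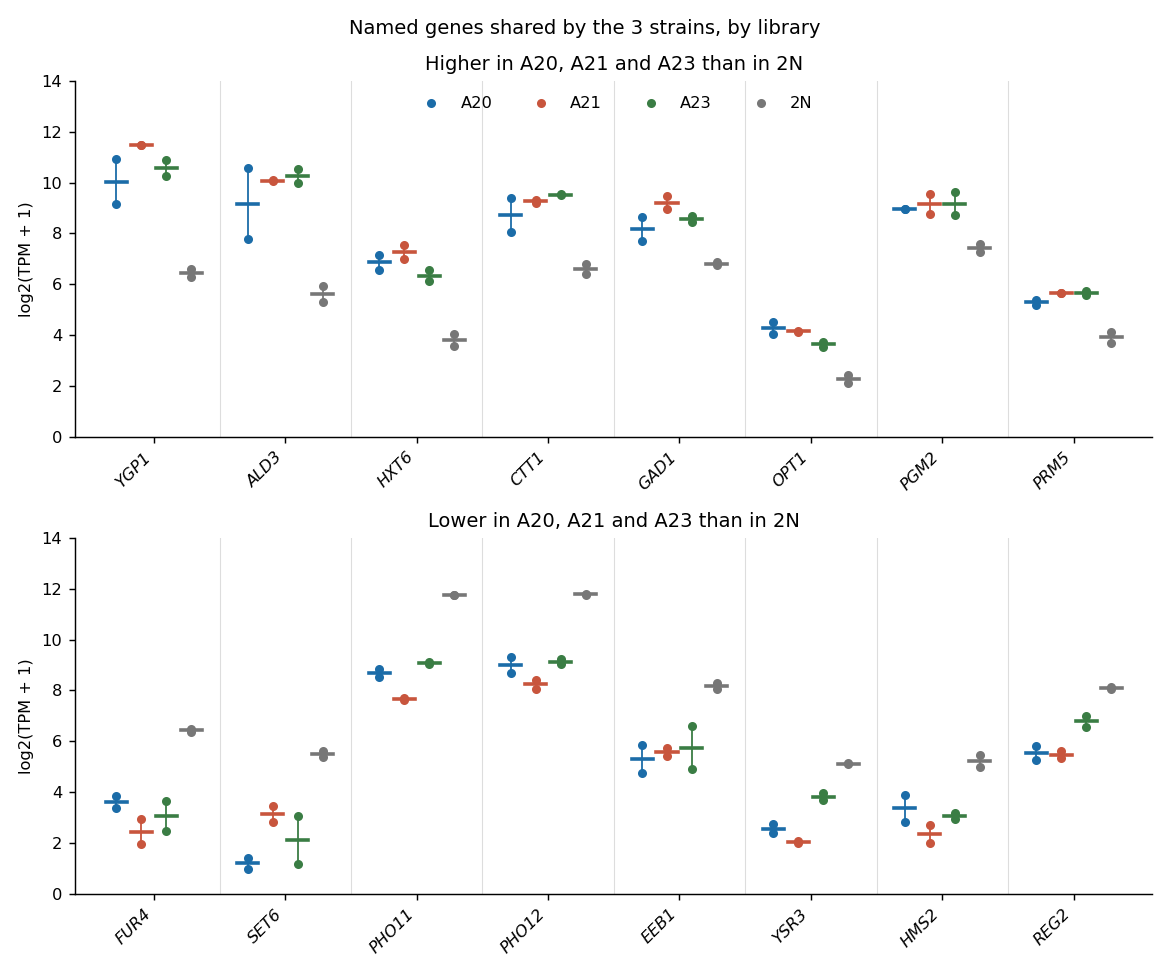
Expression as log2(TPM + 1) (y axis) of the 8 named genes higher and the 8 named genes lower in all 3 strains (x axis) in A20, A21, A23 and 2N. Points are libraries and horizontal bars the mean of 2. No strain library reaches the 2N libraries in any of the 16 genes, which was a condition of their choice and not a finding.

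Genes shared as lower included phosphatases, transporters and enzymes of several pathways. FUR4, the uracil permease (chromosome II, 281443 to 283344), stood at 3.37 and 3.86 in A20, at 1.96 and 2.92 in A21 and at 3.65 and 2.47 in A23, against 6.50 and 6.35 in 2N. It was lower by -2.59, -3.80 and -3.23, each ± 0.44 (limma, adjusted p = 0.0181, 0.00276 and 0.0124). SET6 stood at 1.41 and 0.99 in A20, at 2.84 and 3.44 in A21 and at 3.07 and 1.16 in A23, against 5.37 and 5.60 in 2N. REG2, a regulatory subunit of the phosphatase Glc7, stood at 5.28 and 5.81 in A20, at 5.35 and 5.60 in A21 and at 7.0 and 6.55 in A23, against 8.14 and 8.06 in 2N. The A23 libraries lay between those of the other strains and those of 2N. EEB1, which makes ethyl esters of fatty acids, was lower by -2.66, -2.40 and -2.29 in A20, A21 and A23. YSR3, a phosphatase of sphingolipid breakdown, was lower by -2.34, -2.91 and -1.16, and HMS2 by -1.64, -2.70 and -2.02. Among the others were ARO9 and ARO10, which break down aromatic amino acids, PRS4, which makes the precursor of nucleotides, and the potassium transporter TRK2. YFL002W-A and YGR161W-B, which are parts of Ty elements, had the same values in every library and cannot be told apart.

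Phosphate starvation genes were among those called lower in each strain, in cultures that were all limited by phosphate. Of 18 genes, 10 were lower and 1 higher in A20, 5 were lower and 0 higher in A21, and 9 were lower and 1 higher in A23, with median differences of -0.89, -0.64 and -1.04. The shares of all genes called lower were 5.51%, 5.21% and 3.0% in A20, A21 and A23. After centring on the median, 4, 2 and 7 of the 18 were lower, and with each chromosome centred 3, 3 and 4. The list was chosen with earlier results of these data known. Short windows around CACGTG, the letters that Pho4 binds, are shown for 5 of these genes, on the strand of each gene. CACGTG is found within 300 bases before 8 of the 18 genes and before 3.56% of all genes. Capitals mark it.
PHO5, chrII:431187-431216, minus strand: ccttggcactcaCACGTGggactagcacag
PHO11, chrI:225165-225194, plus strand: tcttggcgttcaCACGTGggtttaaaaagg
PHO12, chrVIII:551804-551833, plus strand: tcttggcgttcaCACGTGggtttaaaaagg
VTC4, chrX:413495-413524, minus strand: CACGTGgctgcaCACGTGaatgaaaaagaa
SPL2, chrVIII:375114-375143, minus strand: agtcactgcagcCACGTGcctagatctatt

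PHO11 and PHO12, which encode secreted acid phosphatases, had the same 30 letters there and coding sequences that are 99.7% identical over 1404 bases, so reads could be split between them. PHO11 (chromosome I, 225460 to 226863) stood at 8.86 and 8.52 in A20, at 7.69 and 7.61 in A21 and at 9.05 and 9.11 in A23, against 11.78 and 11.77 in 2N. The groups did not overlap, and the differences were -2.86, -3.94 and -2.55, each ± 0.23 (limma, adjusted p = 0.00396, 7.94e-05 and 0.00283). PHO12 (chromosome VIII, 552099 to 553502) stood at 9.30 and 8.69 in A20, at 8.42 and 8.06 in A21 and at 9.04 and 9.22 in A23, against 11.82 and 11.76 in 2N. PHO5, the main secreted acid phosphatase (chromosome II, 429548 to 430951), stood at 11.69 and 11.09 in A20, at 12.50 and 12.35 in A21 and at 11.88 and 11.49 in A23, against 13.62 and 13.92 in 2N. It was lower by -2.16 in A20 and -1.95 in A23, and its difference of -1.16 ± 0.33 in A21 missed the threshold (limma, adjusted p = 0.0507).

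Of the genes that store polyphosphate, VTC4, the synthase, was lower in all 3 strains, at -0.93 in A20, -0.79 in A21 and -1.28 in A23. It stood at 7.82 and 7.70 in A20, at 7.99 and 7.87 in A21 and at 7.58 and 7.39 in A23, against 8.96 and 8.85 in 2N. VTC1, another subunit, was lower in A21 and A23, and VTC2 and VTC3 in A20 and A23. PPN2, a polyphosphatase outside the list, was lower in all 3 strains at -1.38, -0.86 and -1.69. SPL2, which holds down low affinity uptake, was lower in A20 and A21. PHO84, the high affinity phosphate transporter, stood at 11.90 and 11.75 in A20, at 12.02 and 12.01 in A21 and at 11.98 and 11.61 in A23, against 12.53 and 12.46 in 2N, and was called in none of them. Every strain library lay below both 2N libraries in PHO84 before the medians were taken off, as in 19.7% of all genes tested. PHM7, a membrane protein induced by low phosphate, rose in A20 and A23, and its difference of 0.68 in A21 was not called. It stood at 5.82 and 6.02 in A20, at 4.61 and 4.10 in A21 and at 5.78 and 5.93 in A23, against 4.00 and 3.73 in 2N.

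**Figure D4:**
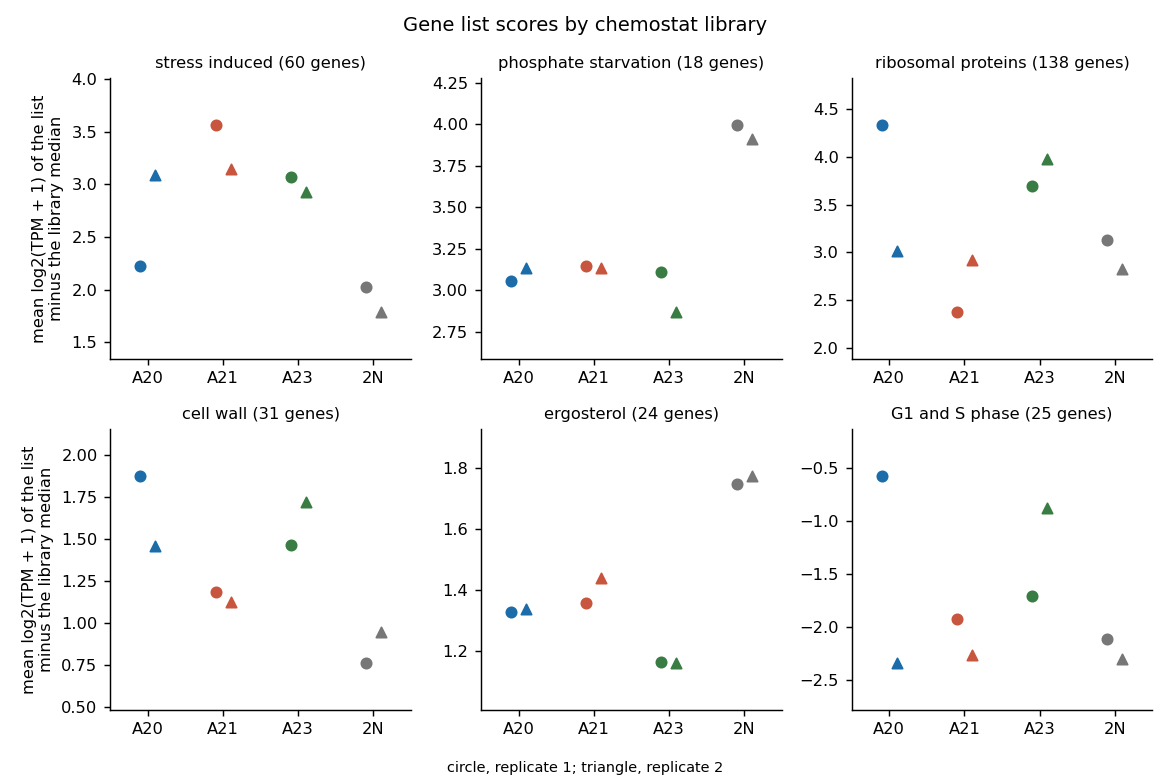
Score of 6 gene lists (y axis, the mean log2(TPM + 1) of the list's genes minus the median of the library) in A20, A21, A23 and 2N (x axis). Circles are replicate 1 and triangles replicate 2; the strains lie above 2N in stress induced and cell wall genes and below it in phosphate starvation and ergosterol genes, and the 2 libraries of A20 lie apart in ribosomal protein, stress induced and G1 and S phase genes.

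Some environmental stress genes were higher in each strain. Of 60 genes of the stress induced list, 7 were higher and 1 lower in A20, 18 higher and 0 lower in A21, and 13 higher and 0 lower in A23. The median differences were 0.48, 1.05 and 0.80. After centring on the median 2, 17 and 13 were higher, and with each chromosome centred 1, 18 and 8. Of all genes, 0.711%, 2.06% and 1.24% were called higher in A20, A21 and A23. The median of A20 was 0.796 without its replicate 1 and 0.197 without its replicate 2. TKL2, a transketolase, stood at 5.04 and 8.23 in A20, at 8.73 and 8.58 in A21 and at 8.63 and 7.99 in A23, against 4.67 and 3.45 in 2N. The first A20 library lay just above 2N and the second with the other strains. HSP12, a membrane stress protein, stood at 14.91 and 16.55 in A20, at 15.71 and 15.65 in A21 and at 15.36 and 15.23 in A23, against 13.73 and 13.05 in 2N. It was called in A20 and A21 and missed the threshold in A23 at 2.04 ± 0.56 (limma, adjusted p = 0.0921). HSP26, a small heat shock protein, stood at 8.27 and 11.87 in A20, at 14.17 and 13.64 in A21 and at 12.62 and 10.25 in A23, against 10.40 and 10.41 in 2N, and was called in none. Of 30 chaperones of the heat shock response, 5 were higher in A21, SSE2, HSP42, CPR6, SIS1 and STI1, with a median of 0.59. In A20 it was ERO1 alone, with a median of 0.17. In A23 limma called 0 (1 higher and 3 lower at an unadjusted p under 0.05), with a median of 0.15.

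Of 138 ribosomal protein genes, limma called 0 in each strain. Their median differences were 0.67 in A20, -0.29 in A21 and 0.86 in A23. At an unadjusted p under 0.05 by limma, 10 were higher and 1 lower in A20, 0 and 5 in A21, and 25 and 0 in A23. The shares of all genes at this unadjusted level were not counted, so these counts have no background to be read against. The libraries of A20 lay apart. The ribosomal protein score was 4.33 and 3.02 in A20, 2.37 and 2.91 in A21 and 3.70 and 3.97 in A23, against 3.12 and 2.83 in 2N. The score of G1 and S phase genes was likewise higher in the first A20 library and in the second A23 library, at -0.58 and -2.34 in A20, -1.92 and -2.27 in A21 and -1.71 and -0.88 in A23, against -2.12 and -2.30 in 2N. The stress induced score ran the other way in A20, at 2.23 and 3.09, while A21 had 3.56 and 3.15 and A23 had 3.07 and 2.93, against 2.03 and 1.79 in 2N. The part of these library differences in the calls was not tested. Without A20 replicate 1 the ribosomal protein median of A20 was 0.036, and without A20 replicate 2 it was 1.36. Of 151 ribosome biogenesis genes, 1 was called, UTP25, lower in A21 at -0.97. Their medians were 0.31, -0.02 and -0.01 in A20, A21 and A23. At an unadjusted p under 0.05 by limma, 22 were higher and 3 lower in A20. There were 2 higher and 27 lower in A21, and 1 and 11 in A23. These unadjusted counts likewise have no background share.

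Of 22 genes of glycolysis and fermentation, 2 were lower in A20, 3 in A21 and 5 in A23, and none was higher, with medians of -0.34, -0.47 and -0.83. Of all genes, 5.51%, 5.21% and 3.0% were called lower in A20, A21 and A23. After centring on the median 0, 1 and 2 of the glycolysis genes were lower, and with each chromosome centred 0, 1 and 0. ENO2, an enolase, stood at 12.33 and 12.61 in A20, at 12.24 and 12.19 in A21 and at 12.05 and 11.49 in A23, against 13.56 and 13.60 in 2N. TPI1, the triose phosphate isomerase, was lower in A20 and A23. Of 24 genes of ergosterol synthesis, 5 were lower in A20, 4 in A21 and 6 in A23, and none was higher, with medians of -0.51, -0.38 and -0.50. MVD1, the mevalonate pyrophosphate decarboxylase, and ERG28, a scaffold of the pathway, were lower in all 3 strains. MVD1 stood at 6.10 and 6.55 in A20, at 6.71 and 7.15 in A21 and at 6.21 and 6.30 in A23, against 7.82 and 7.94 in 2N. The ergosterol score was 1.33 and 1.33 in A20, 1.36 and 1.44 in A21 and 1.16 and 1.16 in A23, against 1.74 and 1.77 in 2N. After centring on the median 1, 2 and 1 of these genes were lower, and with each chromosome centred 1, 0 and 1.

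Of 31 cell wall genes, 4 were higher in A20, SED1, CWP1, FKS1 and DFG5, with a median of 0.68. Of all genes, 0.711% were called higher there. After centring on the median 3 of the 31 were higher in A20, and with each chromosome centred 2. FKS1, the catalytic subunit of glucan synthase, stood at 6.55 and 6.03 in A20, at 4.56 and 4.82 in A21 and at 5.11 and 5.69 in A23, against 3.85 and 4.53 in 2N. It rose by 2.32 ± 0.31 in A20 (limma, adjusted p = 0.0166). SED1, a major wall glycoprotein, rose by 1.61 in A20 and 1.80 in A21. In A21 1 gene was higher and 1 lower, with a median of 0.06, and in A23 likewise 1 and 1, with a median of 0.52. Of 20 genes of G2 and M phase, 2 were lower in A20, 7 in A21 and 5 in A23, with medians of -0.43, -0.60 and -0.45. Among all genes 5.51%, 5.21% and 3.0% were called lower in A20, A21 and A23. After centring on the median 0, 4 and 3 of the 20 were lower, and with each chromosome centred 0, 5 and 2. DSE1, DSE2, DSE3 and SCW11, which act in daughter cells and their separation, were lower in both A21 and A23. DSE2 stood at 9.17 and 8.99 in A20, at 7.55 and 7.51 in A21 and at 8.27 and 7.52 in A23, against 9.72 and 10.00 in 2N. ZRT1, the high affinity zinc transporter, stood at 8.19 and 7.41 in A20, at 6.23 and 6.19 in A21 and at 5.17 and 5.19 in A23, against 8.66 and 8.65 in 2N. FIT3, a wall protein that binds iron carriers, stood at 11.26 and 9.86 in A20, at 6.87 and 6.58 in A21 and at 7.10 and 8.10 in A23, against 6.28 and 7.28 in 2N.

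Genes of 1 strain only were those called against 2N in that strain, not called in the other 2, and called with the same sign against each of them. Between strains, A20 and A21 differed in 5.94% of genes (2.03% higher and 3.91% lower in A20), A20 and A23 in 0.693% (0.107% and 0.587%) and A21 and A23 in 1.69% (0.676% higher and 1.01% lower in A21). A20 had 0 higher and 5 lower (0.0889%). At an unadjusted p under 0.05 for each of these tests limma gave 40 higher and 120 lower. The 5 were AMN1, ATG14, MHF2, SRD1 and the Ty frame YJR029W. MHF2, a histone fold protein at DNA repair sites, stood at 3.50 and 3.57 in A20, at 5.88 and 6.33 in A21 and at 5.76 and 5.52 in A23, against 5.70 and 5.26 in 2N. It was lower by -1.73 ± 0.23 in A20 (limma, adjusted p = 0.0114). AMN1, which acts in exit from mitosis and in cell separation, stood at 6.23 and 6.01 in A20, at 7.23 and 7.05 in A21 and at 7.49 and 7.36 in A23, against 7.04 and 7.23 in 2N. SRD1 stood at 3.37 and 3.79 in A20, at 5.97 and 6.72 in A21 and at 5.38 and 5.94 in A23, against 5.70 and 6.26 in 2N.

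A21 had 12 higher (0.213%) and 15 lower (0.267%). The 12 included MF(ALPHA)1, MF(ALPHA)2, STE3, AGA1, FUS1 and KAR4 of mating, beside DSD1, PDE1 and RAV2. They also count both MATALPHA2 and its identical copy HMLALPHA2, which have the same differences from 2N. Of the 12, at least MF(ALPHA)2 and FUS1 met the filter only through the A21 libraries. PDE1, a cyclic AMP phosphodiesterase, stood at 5.91 and 5.97 in A20, at 7.69 and 7.92 in A21 and at 6.67 and 6.14 in A23, against 6.18 and 6.27 in 2N. Among the 15 lower were genes of sugar use. HXT2, a glucose transporter (chromosome XIII, 288079 to 289704), stood at 10.03 and 10.55 in A20, at 6.60 and 6.93 in A21 and at 8.97 and 9.75 in A23, against 10.07 and 9.22 in 2N. It was lower by -2.70 ± 0.38 in A21 (limma, adjusted p = 0.0055), on a chromosome that lay above the median. SUC2, the invertase, stood at 5.30 and 4.89 in A20, at 3.39 and 2.85 in A21 and at 4.73 and 5.58 in A23, against 5.27 and 4.84 in 2N. SUT2 and CSR2 were lower in A21 by -2.12 and -1.72. BAS1, a regulator of purine and histidine genes, was lower by -1.34, and HIS6, a histidine enzyme, by -1.07. A23 had 3 higher (0.0533%) and 0 lower, against 38 and 70 at an unadjusted p under 0.05. The 3 were BAR1, MBR1 and YKL162C-A. BAR1 met the filter only through the A23 libraries. MBR1, a gene of mitochondrial function, stood at 5.34 and 4.90 in A20, at 5.09 and 5.42 in A21 and at 6.57 and 6.89 in A23, against 4.90 and 5.18 in 2N. A further 4 genes were called in all 3 strains with unlike signs: ICS2, YGL193C and the Ty frame YJR027W were lower in A20 and higher in A21 and A23, and STE6 was lower in A20 and A21 and higher in A23.

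Batch cultures of the same strains in rich medium gave libraries that the comparison above did not use, 6 of each aneuploid strain and 8 of 2N, made from total RNA with another kit. Medium, growth and library preparation differ between the settings and cannot be told apart. In that fit 685 of 3154 genes (21.7%) differed from 2N in A20, 927 (29.4%) in A21 and 882 (28.0%) in A23. Those higher made up 13.3%, 19.5% and 19.5% of genes, and those lower 8.43%, 9.86% and 8.43%. Of the 13 genes shared as higher in the chemostat, 11 could be tested. Of these, 5 were also higher in A20, 8 in A21 and 5 in A23, and 1, 1 and 2 were lower. YGP1 rose by 3.00, 3.09 and 1.98, PGM2 by 2.58, 1.81 and 2.05 and PRM5 by 1.15, 1.84 and 2.42 in A20, A21 and A23. OPT1 and MDH2 were not called higher there, with OPT1 at -0.63, -0.09 and -0.96 and MDH2 at 0.05, -0.78 and -0.78. Of the 51 genes shared as lower, 22 could be tested, of which 6, 5 and 4 were also lower in A20, A21 and A23, and 0, 4 and 3 were higher. PHO84 was lower in all 3 strains, at -1.03, -0.86 and -2.03. FAR1 was higher in A21 and in A23, at 1.11 in each, and lay at -0.21 in A20. HXT2 was higher in all 3 strains, at 1.45, 1.09 and 0.72, A21 included. Of the 12 genes higher in A21 only, 3 could be tested, and all 3 were higher in A21 in batch culture and 2 of them also in A23. AGA1 there stood at 0.06 in A20, 3.92 in A21 and 2.99 in A23.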

How the data were processed

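The authors deposited 1 table of log2(TPM + 1) values for 6692 genes in 176 libraries. Per the submitters' processing notes, STAR 2.5.3a, RSEM 1.3.0 and the sacCer3 build were used. The table holds no counts, so no count test was run and depth is unknown. The libraries of a strain were grouped by their titles.

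Genes with a mean log2 value of at least 2 over the 8 libraries entered a limma fit (version 3.58.1, R 4.3.3) of 1 mean per strain, a trended variance prior and 4 residual degrees of freedom. P-values were adjusted by the Benjamini-Hochberg method over all 5625 genes of a comparison and called under 0.05. The batch culture fit held 26 libraries, with the experiment as a covariate. Tables and figures were made with Python 3.11.15, pandas 2.3.3, numpy 2.4.6 and matplotlib 3.10.9. The fits were tested on simulated data.

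The genes named were the 8 with the largest mean difference among the shared genes in each direction, up to 5 per strain and direction among the genes of 1 strain, and up to 4 called genes of each list. A few others are named to complete short lists or as partners of these, and were chosen after their values were seen. The strains and the gene lists were chosen with earlier results of these data known. Upstream windows were read from the R64 genome, in which 5981 of 5989 genes have the coordinates used by the authors' build. Alternatives were the filter, the pseudocount, the centring, the libraries in the fit, the variance prior, a replicate block and leaving out each library.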

Additional observations from a re-analysis of the deposited data

Results flagged for a closer look

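A few genes moved in opposite directions in a pair of strains, each called against 2N in both, and the difference between the 2 strains was itself called by limma (Benjamini-Hochberg adjusted p). Differences are log2 values relative to the median of all genes. Between A20 and A21 it was -3.53 for ICS2 (adjusted p = 0.000452), -3.82 for SAG1 (adjusted p = 0.000191), -6.20 for YGL193C and -2.30 for YJR027W (adjusted p = 0.000874 for both). Between A20 and A23 it was -3.43 for ICS2, -2.47 for STE6, -5.71 for YGL193C and -1.92 for YJR027W. Between A21 and A23 it was -6.40 for MFA1, -10.11 for MFA2, -5.90 for STE2 and -2.34 for STE6, and 5.91 for MATALPHA1, the same for its copy HMLALPHA1, and 5.31 for YCR041W, which lies beside MATALPHA1. MATALPHA1 and its copy are listed at 0 in both A23 libraries, MFA2 is listed at 0 in A21 replicate 1 and YGL193C in A20 replicate 2, so the fitted values of these genes depend on the added 1 TPM. YJR027W is part of a Ty element, and reads of such repeats may be shared among copies.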

How the results depend on the processing

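With 2 libraries per strain and no counts, the numbers of called genes depend on single libraries and on the setting. None of the 201 called differences of named genes from 2N changed sign under any alternative. Most were picked as large called differences in the same libraries, so an unchanged sign was close to given. Of the 198 that were not called, 50 changed sign, such as HSP26 in A20, from -1.98 to 1.76 on leaving out 1 library. Leaving out 1 library in turn gave 0 to 357 calls in A20, 47 to 537 in A21, 0 to 357 in A23 and 6 to 606 for the mean of the 3 strains. Between strains it gave 42 to 426 for A20 and A21, 15 to 50 for A20 and A23 and 18 to 280 for A21 and A23. Shared genes ran from 0 to 30 higher and 0 to 53 lower, and genes of 1 strain only from 0 to 8 in A20, 9 to 44 in A21 and 0 to 6 in A23.

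Without the filter A20 and A23 differed in 24 genes, 8 were shared as higher, and 2 were of A20 only and 1 of A23 only. Centred on the median, 107 genes were called in A20 and 285 for the mean, 14 were shared as lower and 1 was of A20 only. With each chromosome centred, the counts were 35 in A20, 212 in A21, 83 in A23 and 166 for the mean, 96 between A20 and A21, 26 between A21 and A23, 5 and 11 shared, and 1 of A20 only and 13 of A21 only. A fit of all 20 chemostat libraries gave 588, 713 and 522 in A20, A21 and A23, 131 between A20 and A23, 293 between A21 and A23, 21 and 124 shared, and 16, 60 and 16 of 1 strain only. Without the trend 2 were of A20 only. In batch culture a filter at 4 left 357, 402 and 366.

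Same-numbered deviations correlated between -0.460 and 0.236 over the 6 pairs of strains, so replicate numbers gave no pairing of 1 sign. The lowest value was that of A20 and A23, whose libraries of unlike number ran together. A factor shared by such libraries was not tested. The replicate block gave 143, 246 and 91 calls in A20, A21 and A23, 291 for the mean, 120 between A20 and A21, 25 between A20 and A23, 27 between A21 and A23, 6 and 21 shared, and 2, 14 and 1 of 1 strain only.

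Medians of the lists moved in some settings. A filter at 4 gave 4.45 for alpha cell genes in A21 and 0.38 for pheromone response genes in A20. A pseudocount of 5 TPM gave 3.80 for alpha cell genes and 1.3 for pheromone response genes in A21, and 1.93 and 1.83 for haploid genes in A21 and A23. No filter gave 1.09 for pheromone response genes in A21. With each chromosome centred these genes had 0.08 in A20 and 1.75 in A21, ergosterol genes -0.26 in A21 and -0.56 in A23, and phosphate starvation genes -0.76 in A20 and -0.81 in A23. Leaving out 1 library gave ranges, in A20, of 0.366 to 0.785 for cell wall, 0.197 to 0.796 for stress induced, -0.480 to -0.209 for G2 and M phase, -0.517 to -0.197 for glycolysis, 0.093 to 0.239 for heat shock, 0.184 to 0.303 for pheromone response, -1.007 to -0.706 for phosphate starvation and 0.036 to 1.358 for ribosomal protein genes. In A21 they were -0.724 to -0.314 for G2 and M phase, -2.136 to -0.952 for a cell, 4.413 to 4.889 for alpha cell, -0.453 to -0.311 for ergosterol, 0.436 to 0.793 for heat shock, 1.164 to 1.625 for pheromone response and -0.248 to 0.206 for ribosome biogenesis genes. In A23 they were -0.622 to -0.145 for G2 and M phase, -0.946 to -0.536 for glycolysis, 2.292 to 2.684 for haploid, 0.284 to 0.391 for pheromone response and -1.137 to -0.906 for phosphate starvation genes. Medians that crossed 0 on leaving out 1 library were those of ribosome biogenesis in A21 and A23, a cell, alpha cell and haploid genes in A20 and cell wall genes in A21. Chromosome medians ran from -0.365 to -0.287 on I and from -0.309 to -0.200 on IX in A21, and from -0.362 to -0.296 on III in A23.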

Other observations

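In some genes the libraries of 1 strain lay far apart. SCW10, a cell wall protein of the glucanase family and a member of the cell wall and pheromone response lists, stood at 8.15 and 3.67 in A20, at 5.74 and 5.15 in A21 and at 6.35 and 7.77 in A23, against 3.64 and 3.45 in 2N. SPS100, a protein of spore wall maturation, stood at 3.11 and 8.87 in A20, at 5.66 and 8.93 in A21 and at 9.98 and 5.04 in A23, against 4.23 and 3.86 in 2N. Both genes were chosen after their values were seen. The score of histone genes was 4.48 and 3.03 in A20, 3.93 and 2.98 in A21 and 3.66 and 4.79 in A23, against 3.61 and 2.93 in 2N.

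The 23 other gene lists, of 2 to 64 tested genes, had at most 4 called members in any strain. Their median differences from 2N ran from -0.733 to 1.04 on the log2 scale. Some small lists passed the share of all genes. In A23 3 of 14 zinc genes were lower and 0 higher, where 3.0% of all genes were lower. In A20 3 of 13 genes of phosphate sensing and low affinity transport were lower and 0 higher, where 5.51% were lower. With each chromosome centred 2 and 0 of these were lower.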
